A study of Danio rerio with 8 samples.

Results

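The genes described are 7 markers of the smooth muscle and elastic wall that forms at the arterial end of the zebrafish heart, the outflow tract (OFT). They are acta2, tagln, myh11a, myocd, cnn1b, elna and elnb. They were chosen by name from 31172 gene models, and every gene had a row in both deposited tables, where myocd is spelled MYOCD.

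In vertebrate arteries and in the OFT, smooth muscle cells contract by sliding actin filaments along a smooth muscle myosin, a process switched on when myosin light chain kinase phosphorylates the myosin light chain. The coactivator myocardin works with serum response factor to turn on the contractile genes. Elastin is secreted, laid onto a scaffold of fibrillins and fibulins, and cross-linked by lysyl oxidases, which gives the vessel wall its recoil. In the teleost heart the elastin-rich chamber at the OFT is the bulbus arteriosus, and the second heart field (SHF) contributes cells to it.

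RNA-seq was performed on 8 zebrafish libraries of the AB/TU strain, 1 per condition, so there were no replicates and no test between conditions was possible. Whole embryos at 48 hours post-fertilization (hpf) gave 4 libraries. They came from crg mutants, WT siblings of the crg mutants, Cyp26-deficient embryos and a WT control for these. The crg allele came from an ENU screen and changes a splice donor of hdac1, the histone deacetylase, so it is present in all cells of the mutant. Cells that carried the nkx2.5:ZsYellow transgene and were sorted for its fluorescence at 28 hpf gave the other 4 libraries. They came from Hdac1-depleted embryos, Cyp26-deficient embryos and a separate WT control for each. In the study's methods Hdac1 and the retinoic acid degrading enzymes Cyp26a1 and Cyp26c1 were depleted with morpholinos (MOs) at the start of development, with a MO against p53 in every injection, so all cells of those embryos were exposed. The nkx2.5 promoter is active in cardiomyocytes, SHF progenitors and pharyngeal arch artery progenitors, hence the sorted cells are a mixture, and the study's stated purpose was to find genes that respond to both losses. How many embryos were pooled, and whether the WT controls were injected, is not given in the sources used here.

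Total gene counts were between 11070210 and 30257690 per whole-embryo library and between 13133725 and 19338878 per sorted-cell library. The hdac1 transcript had a log2 fold change of -1.29 in crg mutants and of 1.19 in Hdac1-depleted cells, and since a MO can act on the protein alone the latter does not check its label. The retinoic acid target cyp26a1 was higher in both Cyp26-deficient libraries, by 3.33 in whole embryos and 3.68 in sorted cells on the log2 scale. The sorting marker nkx2.5 had between 516 and 1208 normalized counts in the sorted libraries. All 9 cardiomyocyte markers and all 11 skeletal muscle markers reached the minimum mean described below in them too. So did all fibroblast (9), neural crest (6), endothelial (6), epidermal (5) and notochord (3) markers found. Passing therefore did not separate these tissues, and which cells this RNA came from was not tested. Each value below is a count divided by a size factor (a normalized count), and a fold change is log2 of the ratio of normalized counts after adding 1 to each. A gene was counted as raised or lowered when it differed more than 2-fold and its mean in the table reached 10 normalized counts. The share of all genes past 2-fold was taken for matched controls only. Counts against the other WT library of a table, or over several comparisons, have no such share beside them. The 95% interval given with a fold change covers counting error only, and not differences between embryos or sorts. The RNA of sorted cells was amplified before sequencing, and the intervals there do not cover error added by that step either. In bulk samples such as these, fewer expressing cells and less RNA per expressing cell cannot be told apart. Which cells the smooth muscle and elastin counts came from was not tested, in whole embryos or in sorted cells. The study stained the OFT for the elnb protein and for functional smooth muscle at later ages than those sequenced here.

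The genes differed widely in level. In WT siblings of crg mutants, in CPM per kilobase of exon, where CPM are counts scaled to a common library total, acta2 was at 4.06 and tagln at 2.46, followed by myocd at 1.14, myh11a at 0.763, elna at 0.649, cnn1b at 0.5005 and elnb at 0.290. The intervals put acta2 above tagln and tagln above myocd, whereas no gene from myocd downwards was separated from the next in the order. In sorted cells of the WT control for Hdac1 the leading gene on the same scale was myh11a at 9.44. There myocd was at 7.03, acta2 at 4.81 and tagln at 3.96. The last 3 genes were cnn1b at 0.430, elna at 0.356 and elnb at 0.224, which were not separated from the next in the order, while tagln was above cnn1b. Hence the contractile and regulatory genes were well counted in sorted cells at 28 hpf, while cnn1b and both elastin genes rested on 9 to 27 counts in that control. The tables were normalized separately and come from different ages and library methods, so the change in order between them is a description only.

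**Figure D1:**
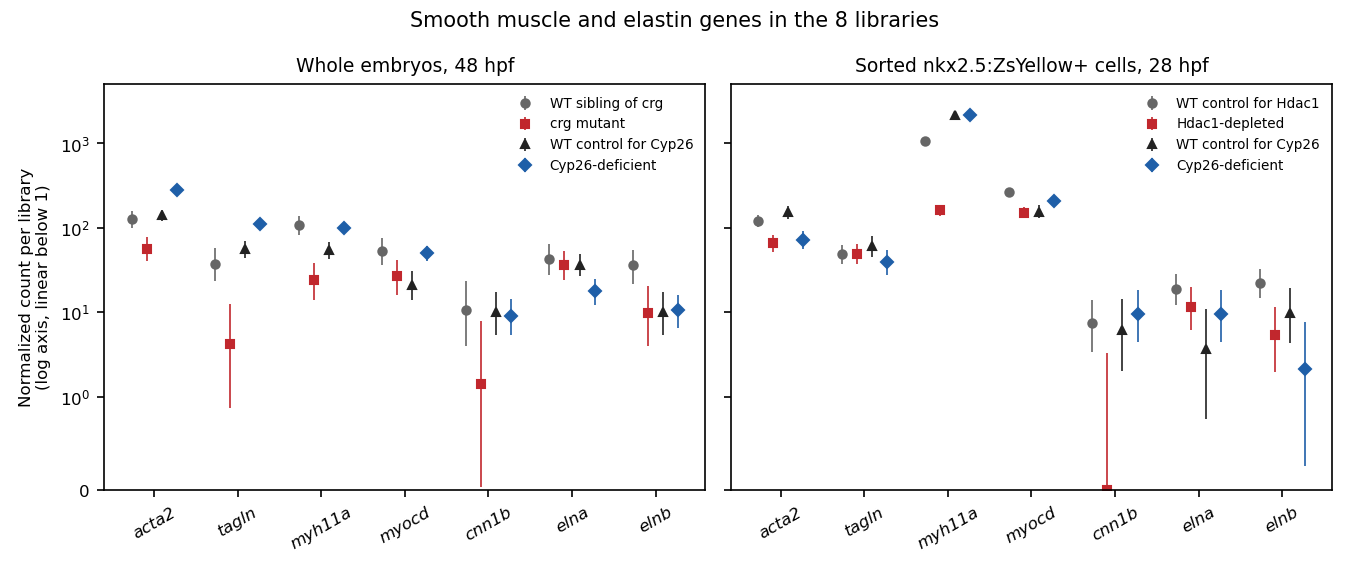
Normalized count (log axis, linear below 1) of the 7 genes in each of the 8 libraries, whole embryos at 48 hpf on the left and sorted cells at 28 hpf on the right, with 95% Poisson intervals as bars. In sorted cells myh11a lies at 162 in the Hdac1-depleted library and between 1073 and 2178 in the other 3, and in whole embryos tagln lies at 4.24 in crg mutants and between 37.6 and 111 in the other 3.

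In crg mutants acta2, tagln and myh11a were lower than in WT siblings and than in the other WT library. Of the 6 genes that passed the minimum mean, 4 were lowered more than 2-fold (acta2, tagln, myh11a and elnb), 0 were raised, and myocd and elna stayed within the limit. Over all genes tested, 7.78% were lowered and 6.43% raised (14.2% in either direction). The median log2 fold change of these 6 genes was -1.46, beside 0.01 over all 19888 genes tested. Set against the other WT library, 3 of the 6 were lowered and the median was -0.58. The counting interval lay wholly past 2-fold for tagln and myh11a, 2 of the 6, beside 2.84% of all genes tested that were lowered and 1.14% that were raised by this stricter rule.

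The actin gene acta2, which encodes the alpha-actin of smooth muscle, is on chromosome 12 (Zv9, 18167911 to 18183279, plus strand, ENSDARG00000045180). It is listed with 10 exons, where versions of an exon with another start or end are listed apart. Its normalized counts were 127 in WT siblings, 56.5 in crg mutants, 278 in Cyp26-deficient embryos and 141 in their WT control. The crg library was the lowest of the 4 and the Cyp26-deficient library the highest. In crg mutants its log2 fold change was -1.16 (interval -1.77 to -0.59), and -1.30 against the other WT library. Of the 5 closely similar striated alpha-actin genes 0 were raised and 0 lowered, with a median of -0.58. Their summed normalized count was 1.89-fold lower (210666 against 398986), beside 2.25-fold for acta2, and their median was 0.94 with the other WT library as control. How reads matching several actin genes were divided is not given in the sources used here, so the acta2 counts are uncertain in this respect.

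The transgelin gene tagln, whose product binds actin and is an early marker of smooth muscle, lies on chromosome 15 (542640 to 550071, minus strand, ENSDARG00000045408). Its normalized counts were 37.6 in WT siblings, 4.24 in crg mutants, 111 in Cyp26-deficient embryos and 55.8 in their WT control. These rest on 21 counts in WT siblings and 3 counts in crg mutants. The log2 fold change was -2.88 (interval -5.54 to -1.41). The crg library was lowest by a wide margin, since the WT libraries differed from each other by -0.56 (WT sibling against the WT control for Cyp26).

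The smooth muscle myosin heavy chain gene myh11a is on chromosome 6 (9215345 to 9296338, plus strand, ENSDARG00000009782) and is listed with 44 exons. Some of these are versions of the same exon with another start or end. Its normalized counts were 107 in WT siblings, 24.0 in crg mutants, 99.3 in Cyp26-deficient embryos and 54.2 in their WT control. The log2 fold change in crg mutants was -2.12 (interval -3.03 to -1.36), or 4.47-fold lower. The WT libraries themselves differed by 0.97, and against the WT control for Cyp26 the value was -1.14. So myh11a was lowest in crg mutants against either WT library, but the size of the difference depended on which was used.

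Myocardin, myocd (chromosome 12, 193338 to 221746, plus strand, ENSDARG00000076267), had 53.7 normalized counts in WT siblings, 26.8 in crg mutants, 50.4 in Cyp26-deficient embryos and 20.9 in their WT control. The crg value lay between the WT libraries, which differed from each other by 1.32 on the log2 scale. The log2 fold change was therefore -0.97 (interval -1.91 to -0.12) against WT siblings and 0.34 against the other WT library. The calponin gene cnn1b, whose product binds actin and damps the myosin ATPase (chromosome 3, 13617465 to 13640483, minus strand, ENSDARG00000093937), had only 6 counts in WT siblings and 1 in the mutants and did not reach the minimum mean. The remaining whole-embryo libraries had 13 and 18 counts of it. The interval of the crg difference, -8.45 to 0.12, included no change.

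The elastin genes parted. For elna (chromosome 15, 163462 to 192824, plus strand, ENSDARG00000069994) normalized counts were 43.0 in WT siblings, 36.7 in crg mutants, 17.6 in Cyp26-deficient embryos and 36.4 in their WT control. The crg value lay between those of the WT libraries, at a log2 fold change of -0.22 (interval -1.08 to 0.64). For elnb, known for a role in the zebrafish bulbus arteriosus (chromosome 21, 39488348 to 39528844, minus strand, ENSDARG00000069017) normalized counts were 35.8 in WT siblings, 9.89 in crg mutants, 10.6 in Cyp26-deficient embryos and 10.1 in their WT control. Here the WT siblings stood alone, and the other 3 libraries were alike. The log2 fold change of elnb in crg mutants was -1.76 (interval -3.34 to -0.56) against its own control and -0.025 against the other WT library. In these sparse genes 21 of the 52 listed elna exons and 15 of the 63 listed elnb exons had at least 0.5 counts in WT siblings.

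**Figure D2:**
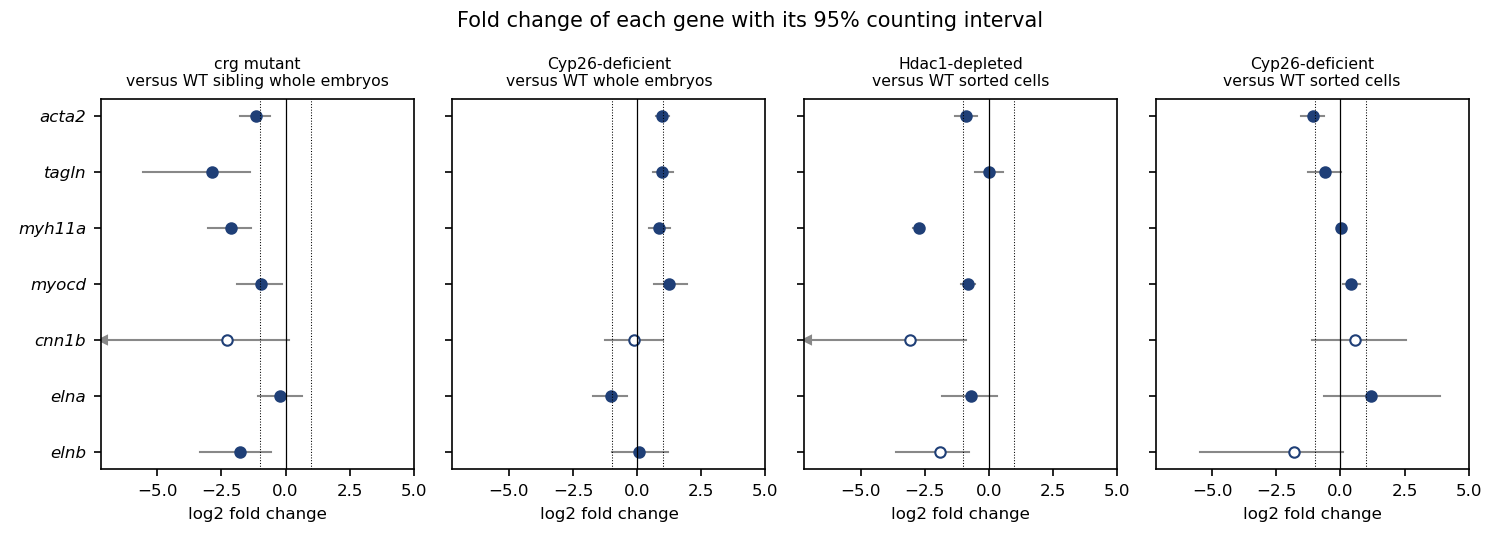
Log2 fold change (x axis) of each gene (y axis) in the 4 comparisons, with its 95% counting interval. Filled points passed the mean of 10 normalized counts and open points did not, dotted lines mark 2-fold, and arrows mark intervals that run past the axis. The cnn1b point in Hdac1-depleted cells, with 0 counts, depends on the added 1. All 7 points lie below 0 in crg mutants, from -2.88 to -0.22, and the interval furthest from the 2-fold line is that of myh11a in Hdac1-depleted cells.

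Related genes were read from lists, described by counts and medians. Beside these counts, 6.43% of all genes tested were raised and 7.78% lowered in crg mutants against WT siblings. Of 42 contractile and cytoskeletal genes found, 36 passed the minimum mean in whole embryos. In crg mutants 1 was raised and 4 were lowered, with a median of -0.20. With the other WT library as control 2 were raised and 4 lowered, and the median was 0.27. The myosin light chain kinase gene mylka had 17 counts in WT siblings and 2 in the mutants (log2 fold change -3.04, interval -6.59 to -1.35), and among the genes of that list that passed the minimum mean it was the only one whose interval lay wholly past 2-fold. Of 24 transcriptional regulators that passed, 1 was raised and 0 were lowered. With the other WT library as control 1 was raised and 2 were lowered. The gene raised against WT siblings was jag1a, which encodes a Notch ligand, at 1.38, but at -0.51 against the other WT library. Of 10 mural cell genes 4 were lowered, with a median of -0.77, but with the other WT library as control 0 were lowered and the median was -0.47. Among them rgs5a, a regulator of G-protein signalling found in pericytes, had 37 counts against 120 (-2.02, and -0.98 against the other WT library).

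The elastic fibre list was lower more widely. Of 27 genes that passed, 11 were lowered and 0 raised in crg mutants (median -0.73), and 8 had intervals wholly past 2-fold. The shares over all genes tested were 7.78% lowered and 6.43% raised, with 2.84% lowered by the stricter rule. With the other WT library as control 7 were lowered and 1 was raised, with a median of -0.12. The gene emilin3a, named for an elastin interface protein, had 475 counts in WT siblings and 4 in the mutants (log2 fold change -7.00, interval -9.12 to -5.87). Which tissue its counts came from was not tested. The lysyl oxidase gene lox, which cross-links elastin and collagen, had 2 counts against 44 (-4.38, interval -7.89 to -2.86). The fibulin gene fbln5, needed in the mouse to assemble elastic fibres, had 49 counts against 202 (-2.37, interval -2.87 to -1.93). Against the other WT library these 3 genes gave -5.07, -2.41 and -1.54, so they remained lower against either control.

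Among markers of other tissues, those of cardiomyocytes were most often past 2-fold in crg mutants against WT siblings. The shares over all genes tested were 7.78% lowered and 6.43% raised. Of 9 cardiomyocyte markers 5 were lowered and 0 raised, with a median of -1.04, although their summed normalized counts were close, at 11704 against 12872. The largest of these differences were in myl7 (-1.92), tnni1b (-1.62) and cmlc1 (-1.48). When the other WT library served as control 1 of the 9 was lowered (median -0.17), and these 3 genes were at -0.53, -0.62 and -0.17. Of 3 notochord markers 1 was lowered (summed 14419 against 23049) and of 11 skeletal muscle markers 1 was lowered (summed 556949 against 929724). None of the fibroblast (9), endothelial (6), neural crest (6) or epidermal (5) markers was past 2-fold. Their part in the smooth muscle and elastin values was not tested.

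Cyp26-deficient embryos had more acta2, tagln, myh11a and myocd than their WT control, but mostly by slightly less than 2-fold. Of the 6 genes that passed the minimum mean 1 was raised (myocd) and 1 was lowered (elna), and 4 stayed within the limit. Over all genes tested 3.5% were raised and 2.59% lowered (6.1% in either direction). The median of the 6 genes was 0.92, beside -0.03 over all genes, and no interval of the 6 lay wholly past 2-fold, a rule met by 0.986% of all genes upwards and 1.11% downwards. The median was -0.10, with 2 genes raised and 2 lowered, when the other WT library served as control. With total-count scaling, which moved the median of all genes by 0.25 in this comparison and by 0.16 in the crg comparison, 4 genes were raised and 0 lowered, and with TMM scaling 1 was raised and 0 lowered.

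The fold change of acta2 was 0.97 (interval 0.73 to 1.23), from 182 counts to 551. That of tagln was 0.98 (interval 0.60 to 1.39), from 72 counts to 220. These held against the other WT library, at 1.12 and 1.54. The size of the acta2 difference varied between its exons. Of 9 listed exons with at least 10 counts in either library 8 were higher and 1 lower, with a median ratio of 2.83. The lowest and highest ratios, 0.94 and 6.34, both came from the last exon. It is listed in versions that share a start and end at 18183279 and 18183270. Counts were divided between these versions, so neither extreme, nor the lower value, describes a separate exon. The fold changes of myh11a and myocd were 0.86 (interval 0.47 to 1.29) and 1.23 (interval 0.64 to 1.94). Against the WT siblings of crg mutants they were -0.11 and -0.09, so neither was separated from the spread between WT libraries. The gene elna went the other way, at -1.01 (interval -1.72 to -0.38) and -1.24 against the other WT library. The Cyp26-deficient library was therefore the lowest of the 4 for elna and the highest for acta2 and tagln. For elnb the value was 0.06 (interval -0.99 to 1.19), and for cnn1b -0.14 (interval -1.26 to 0.999).

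Few genes of the related lists were past 2-fold in Cyp26-deficient embryos against the matched control, and more were against the other WT library. Against the matched control 3.5% of all genes tested were raised and 2.59% lowered. None of the 36 contractile genes and none of the 10 mural cell genes was past 2-fold (medians 0.09 and 0.08). Of 24 regulators 1 was raised and 0 lowered (median 0.09). Of 27 elastic fibre genes 3 were lowered and 0 raised (median -0.22), the clearest being emilin3a with 138 counts against 286 (-1.66, interval -1.98 to -1.37). With the other WT library as control 12 were lowered and 1 was raised in that list, and of the contractile genes 3 were raised and 2 lowered. Of the 5 striated alpha-actin genes 1 was raised, ACTC1, with 4254 counts against 708 (1.96, interval 1.85 to 2.08) but 0.44 against the other WT library. This actin is closely similar to acta2, and its part in the acta2 value was not tested. Of the 9 cardiomyocyte markers 1 was raised and 1 lowered, while skeletal muscle (1 of 11) and fibroblast markers (1 of 9) were lowered and the other lists of markers had none past 2-fold. With the other WT library as control 4 of 5 striated alpha-actins, 7 of 9 fibroblast and 4 of 5 epidermal markers were lowered, and of the 9 cardiomyocyte markers 2 were raised and 5 lowered. The WT libraries themselves differed in these lists. Summed normalized counts in WT siblings and the WT control for Cyp26 were 328741 and 122479 for fibroblast markers. In the same order they were 704143 and 348711 for epidermal markers and 398986 and 289021 for striated alpha-actins. For cardiomyocyte markers they were 12872 and 20716.

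In Hdac1-depleted sorted cells, myh11a was far lower, and acta2, tagln, myocd and elna stayed within 2-fold of the matched control. Of the 5 genes that passed the minimum mean in sorted cells 1 was lowered (myh11a), 0 were raised and 4 stayed within the limit. The gene elna passed narrowly, with a mean of 10.96, and its highest value was 19.0 in the WT control for Hdac1. Over all genes tested 12.7% were lowered and 12.4% raised (25.1% in either direction). The median of the 5 genes was -0.81, beside -0.0060 over all 20033 genes tested. Set against the other WT library, 1 was raised and 2 were lowered, and the median was -0.30. The interval of myh11a alone lay wholly past 2-fold, 1 gene of 5, beside 5.9% of all genes downwards and 6.51% upwards.

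The normalized counts of myh11a were 1073 and 2151 in the WT controls for Hdac1 and Cyp26, 2178 in Cyp26-deficient cells and 162 in Hdac1-depleted cells. The Hdac1-depleted library was below all others. The log2 fold change of -2.72 (interval -2.96 to -2.51) was 6.64-fold lower than in the matched control, and -3.73 against the other WT library. The WT libraries differed by -1.002, the control for Hdac1 being the lower. The difference was seen along the whole transcript, but unevenly. Of 34 myh11a exons with at least 10 counts in either library, 34 had a lower normalized count in Hdac1-depleted cells, with a median 8.23-fold lower. Their ratios ran from 0 to 0.51. The first 9 listed exons had 0 counts in Hdac1-depleted cells, beside up to 17.1 counts per exon in the WT control. Why the start of the gene had no counts was not tested. The last exon took 13.7% of the gene's counts in the WT control.

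**Figure D3:**
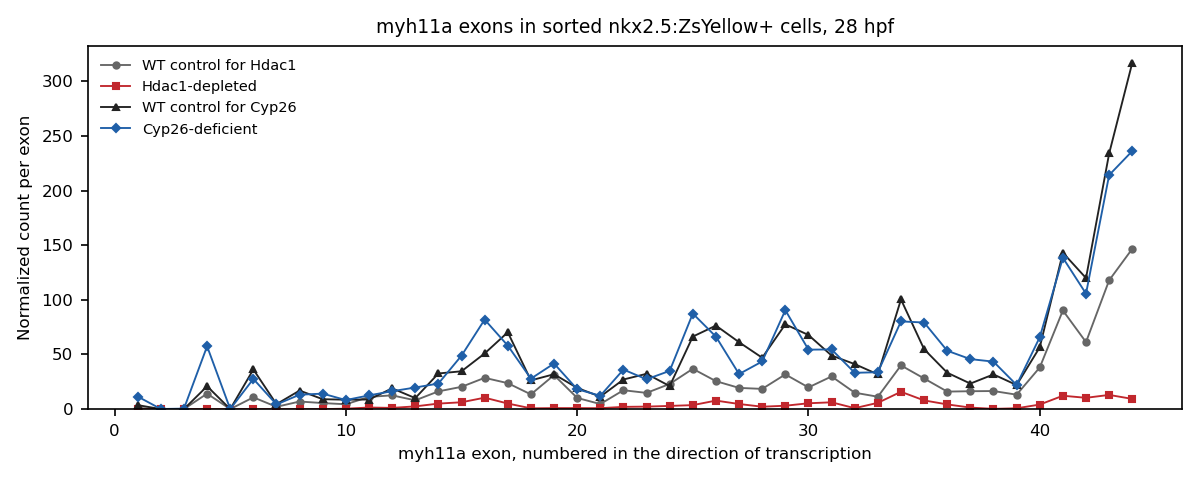
Normalized count (y axis) of each of the 44 listed myh11a exons (x axis, in the direction of transcription) in the 4 sorted-cell libraries, drawn as lines through 1 point per listed exon. Points 2, 3 and 5 are versions of a neighbouring exon with another start or end, and lie near 0 because counts were divided between versions. The Hdac1-depleted line runs below that of its WT control at all 34 exons with at least 10 counts in either library, and the Cyp26-deficient line and its WT control cross repeatedly.

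For acta2 the sorted-cell normalized counts were 122 and 153 in the WT controls for Hdac1 and Cyp26, 72.6 in Cyp26-deficient cells and 65.7 after Hdac1 depletion. Both depleted libraries were below both WT libraries. In Hdac1-depleted cells the log2 fold change was -0.88 (interval -1.31 to -0.48), and -1.21 against the other WT library. The normalized counts of tagln in the same order of libraries were 48.8, 60.5, 39.5 and 48.8. Thus tagln was equal in Hdac1-depleted cells and their control, with an interval from -0.56 to 0.56 that leaves differences of that size undetectable. The corresponding normalized counts of myocd were 266, 155, 209 and 152. The Hdac1-depleted value was the lowest, at -0.81 (interval -1.09 to -0.54), but it was level with the WT control for Cyp26 (-0.03). All 7 myocd exons with at least 10 counts in either library were lower in Hdac1-depleted cells than in the matched control.

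The sparse genes were lower or not separable. For cnn1b there were 0 counts in Hdac1-depleted cells and 9 in the control, which is at least 2.80-fold lower when the empty library is set at a floor of 3 counts. It had 9 counts in Cyp26-deficient cells and 5 in their WT control. For elnb there were 6 counts against 27 (log2 fold change -1.88, interval -3.63 to -0.76), with 8 in the other WT library. For elna there were 13 counts against 23, and the interval (-1.82 to 0.32) included no change. The WT libraries differed in elna by 2.09, more than the change seen here, and against the other WT library elna was at 1.41. Neither cnn1b nor elnb reached the minimum mean in sorted cells.

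Kinases that activate smooth muscle myosin were lower together with myh11a, but the contractile list as a whole was not set apart. Of 40 contractile genes that passed 4 were raised and 6 lowered in Hdac1-depleted cells (median -0.13). This was close to the shares over all genes tested, 12.4% raised and 12.7% lowered. A myosin light chain kinase gene named MYLK (1 of 2) had 4 counts against 151 (-4.79, interval -7.03 to -3.75). The related mylka had 4 counts against 88 (-4.02, interval -6.26 to -2.95). The gene pdlim3a, which encodes a PDZ and LIM domain protein of the Z-line, had 23 counts against 106 (-2.05). In the other direction tagln3b, a transgelin expressed in neurons in mammals, had 1740 counts against 182 (3.35, interval 3.14 to 3.59), and the tropomyosin gene tpm4b had 985 against 344 (1.62). The second smooth muscle myosin heavy chain gene, myh11b, was at -0.02, with 361 counts against 394, unlike myh11a. In crg mutants myh11b was also unlike myh11a, with 33 counts against 14 (0.87, interval -0.05 to 1.91), and 0.57 against the other WT library. In Cyp26-deficient embryos and cells myh11b was at -0.21 and -0.11.

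Regulators and matrix genes gave smaller sets, to be read beside the 12.4% of all genes tested that were raised and the 12.7% that were lowered. Of 24 regulators 1 was raised and 3 were lowered (median -0.30), and foxf1, a forkhead factor of visceral mesoderm, had 190 counts against 537 (-1.39, interval -1.64 to -1.16). Of 27 elastic fibre genes 2 were raised and 6 lowered (median -0.29). The fibulin genes EFEMP1 (1 of 2) and fbln1 were at -4.16 (interval -6.91 to -2.998) and -2.58, from 3 counts against 78 and 93 against 604. The gene mfap4, at 571 counts against 2258 (-1.88), is named for a microfibril protein but in zebrafish is also a marker of macrophages. The fibrillin gene fbn1 was higher, with 214 counts against 58 (1.96, interval 1.56 to 2.43). Of 10 mural cell genes 2 were lowered and 0 raised (median -0.26), and of 5 striated alpha-actins 0 were past 2-fold.

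The makeup of the Hdac1-depleted library differed from its control in the marker lists. Beside them, 12.4% of all genes tested were raised and 12.7% lowered. All 6 endothelial markers were lowered, with a median of -2.07 and a summed normalized count of 3442 against 15064, where the 4 sorted libraries ranged from 3442 to 18551. The largest differences were in cdh5 (-2.64), erg (-2.18) and tie1 (-2.16), which are defining genes of endothelium. Of 6 neural crest markers 3 were raised (sox10 at 3.52, foxd3 at 3.45 and tfap2a at 2.03), and their sum was 7259 against 2317. Of 9 cardiomyocyte markers 1 was lowered, myh6, and the sums were 102656 and 99908. Skeletal muscle (3 of 11), fibroblast (3 of 9), notochord (2 of 3) and epidermal markers (1 of 5) were lowered and none of them raised. The skeletal muscle, epidermal and notochord differences did not hold with the other WT library as control. There skeletal muscle had 4 raised and 1 lowered, epidermis 3 raised and 0 lowered, and notochord 0 lowered. Fibroblast markers were still lowered in 2 of 9, with 0 raised. All 6 endothelial markers were again lowered and 3 neural crest markers raised. The library with the least myh11a was thus also that with the least endothelial and the most neural crest signal, while its cardiomyocyte signal was close to that of its control. The part of these markers in the myh11a value was not tested. The nkx2.5 transcript itself had 888 counts against 1177 (-0.30), but was at 0.61 against the other WT library.

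In Cyp26-deficient sorted cells the smooth muscle genes showed little common direction. Of the 5 genes that passed 1 was raised (elna), 1 was lowered (acta2) and 3 stayed within the limit. Over all genes tested 8.81% were raised and 7.6% lowered (16.4% in either direction). The median was 0.018, beside -0.0045 over all genes tested. No interval lay wholly past 2-fold, a rule met by 2.49% of all genes upwards and 2.07% downwards.

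The lowered gene acta2 had 68 counts against 124, or -1.07 (interval -1.53 to -0.64), and -0.74 against the other WT library. For tagln the value was -0.60 (interval -1.27 to 0.03). The myosin gene myh11a was almost level, at 0.018 (interval -0.08 to 0.11, 2041 counts against 1743). At this depth a difference of more than 1.08-fold upwards would lie outside the counting interval, although against the other WT library myh11a was at 1.02. Of its 39 exons with at least 10 counts in either library 17 were lower and 22 higher. For myocd the value was 0.43 (interval 0.10 to 0.76), and -0.35 against the other WT library. The raised gene elna passed the minimum mean through the Hdac1 pair of libraries and rests here on 9 counts against 3, with an interval of -0.63 to 3.90 that includes no change. For elnb there were 2 counts against 8 (interval -5.48 to 0.12) and for cnn1b 9 against 5 (interval -1.09 to 2.56).

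Among related genes in Cyp26-deficient sorted cells, 5 of 40 contractile genes were raised and 2 lowered (median -0.08). The shares over all genes tested were 8.81% raised and 7.6% lowered. The raised contractile genes were led by tpm4b at 1.64 (interval 1.36 to 1.95), SYNPO2 (1 of 2), a synaptopodin gene, at 1.29, and the desmin gene desma at 1.24. Against the other WT library these were 0.76, 0.31 and -0.14, and 0 of the 40 genes were raised. Of 24 regulators 3 were raised and 1 lowered (median -0.10). The gene klf4, a Krüppel-like factor that represses contractile genes in mammalian smooth muscle, had 92 counts against 20 (1.95, interval 1.28 to 2.77) and stayed at 1.41 against the other WT library. Of 27 elastic fibre genes 1 was raised and 3 lowered (median -0.09), with fbln1 at 1.28 and at -0.05 against the other WT library. Of 10 mural cell genes 1 was raised and 1 lowered (median 0.037). Of 5 striated alpha-actins 1 was raised, actc1b, at 1.09 but at -0.02 against the other WT library.

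Skeletal muscle markers moved with these contractile genes. Beside the marker counts, 8.81% of all genes tested were raised and 7.6% lowered. Of 11 such markers 6 were raised and 0 lowered, with a summed normalized count of 31016 against 16083 and a range over the sorted libraries of 16083 to 38037. With the other WT library as control 0 were raised and 1 was lowered. Desmin and actc1b are also genes of striated muscle, and the part of skeletal muscle RNA in their values was not tested. Neural crest markers were raised in 2 of 6 and fibroblast markers lowered in 2 of 9, while no cardiomyocyte, endothelial, epidermal or notochord marker was past 2-fold. With the other WT library as control 0 neural crest markers were raised, and fibroblast markers were again lowered in 2 of 9. There 3 of 5 epidermal, 2 of 9 cardiomyocyte and 1 of 3 notochord markers were lowered, and 0 endothelial markers. The nkx2.5 transcript was higher, with 1132 counts against 418 (1.23), but at 0.31 against the other WT library.

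Read across the 4 comparisons, each gene had its own pattern. Of the 5 genes that reached the minimum mean in both tables, only myh11a was lowered past 2-fold in both crg mutant embryos and Hdac1-depleted cells when each was set against its matched control. With the other WT library of each table as control, both myh11a (-1.14 and -3.73) and acta2 (-1.30 and -1.21) were. Over all genes tested 7.78% were lowered in crg mutants and 12.7% in Hdac1-depleted cells, each against its matched control. The share lowered in both was not taken. The sparse elnb and cnn1b were also lower in both, but on at most 27 counts in sorted cells. For acta2 the values were -1.16 in crg mutants, -0.88 in Hdac1-depleted cells, 0.97 in Cyp26-deficient embryos and -1.07 in Cyp26-deficient cells, so the Cyp26 values had opposite signs at 48 hpf and at 28 hpf. For tagln the values in that order were -2.88, 0.00077, 0.98 and -0.60. None of these differences between comparisons was tested, since each comparison rests on 1 library per condition and the ages and cells differ.

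After each table was centred on its own mean, the levels of the genes were compared over the 8 libraries by Pearson's r, as a description of single libraries that differ in depth. The pair most alike was myh11a and cnn1b, at 0.93, followed by acta2 and tagln at 0.87. Of these cnn1b did not reach the minimum mean in either table. It had 1 count in crg mutants and 0 in Hdac1-depleted cells, so its r rests on sparse counts. The elastin gene elna was unlike acta2 (r = -0.51), and the elastin genes were weakly alike (r = 0.32). Among 13189 genes ranked, those most like myh11a were btbd10b (0.983), aldh8a1 (0.980) and MFAP4 (4 of 13) (0.974). Those most like acta2 were gusb (0.998), si:dkey-260c8.4 (0.969) and gtf3c5 (0.961), and those most like tagln were si:ch211-136a13.1 (0.961), adcy7 (0.959) and CABZ01088330.1 (0.959). The gene most like myocd was PALLD (0.985), which encodes the actin-binding protein palladin, followed by ARHGEF37 (0.949) and slc1a5 (0.931). Those most like elna were c1d (0.985), taf12 (0.976) and dcun1d1 (0.968). Each of these is among the highest of 13189 values of r over only 8 libraries. How high the top r would be for unrelated genes was not tested, so these lists do not show shared regulation.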

How the data were processed

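RNA-seq libraries were made by the authors from whole embryos (single-end, stranded) and from RNA of sorted cells that was amplified (paired-end, strand not given in the sources used here), and were aligned to Zv9/danRer7 in Strand NGS. The deposited values are expected counts per gene and exon, those of whole embryos held inside an attribute column, and the authors' processing notes also name DESeq. They were rounded, and size factors were taken as the median of ratios over the 4 libraries of each table (Python 3.11.15, scipy 1.17.1, pandas 2.3.3, numpy 2.4.6). TMM factors came from edgeR 4.0.16 in R 4.3.3, as an alternative. With 1 library per condition, no test was run. Intervals are exact (Clopper-Pearson, 95%) and cover counting error only. Levels between genes were compared per kilobase of exon union. No gene model overlapped any of the 7 genes.

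Genes beyond the 7 were named by rule as up to 3 raised and 3 lowered genes per list with intervals wholly past 2-fold, and the 3 most alike genes among those with a mean of at least 50. The members and lists were chosen with earlier results of these data known. Spellings used in the tables were matched to the lists after the files were opened. myh11b was named after its values were seen. The script was checked on simulated data. Alternatives were TMM and total-count scaling, pseudocounts of 0.1 and 10, unrounded counts, no minimum mean and a minimum of 50, the other WT library, a 4-fold limit, intervals wholly past 2-fold, and the highest exon in place of the gene.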

Additional observations from a re-analysis of the deposited data

Results flagged for a closer look

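The gene elna had opposite signs in the Cyp26 comparisons. Its log2 fold change was -1.01 in Cyp26-deficient whole embryos, from 35 counts against 47, and 1.17 in Cyp26-deficient sorted cells, from 9 counts against 3. The difference between these values was not tested, because each rests on 1 library per condition, and the interval of the sorted-cell value included no change.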

How the results depend on the processing

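The count of genes past 2-fold changed with the setting in every comparison. In crg mutants it was 4, became 2 with a 4-fold limit or with intervals wholly past 2-fold, and lay between 3 and 6 under the other settings. In Cyp26-deficient embryos it was 2, and became 1 with TMM scaling, the highest exon or unrounded counts, 4 with total-count scaling or the other WT library, and 0 with a pseudocount of 10, a minimum mean of 50, a 4-fold limit or intervals wholly past 2-fold. In Hdac1-depleted cells it was 1, and became 2 with the highest exon and 3 with the other WT library or with no minimum mean. In Cyp26-deficient cells it was 2, and became 1 with total-count scaling, the other WT library or a minimum mean of 50, 0 with a pseudocount of 10, a 4-fold limit or intervals wholly past 2-fold, and 3 with the highest exon or no minimum mean. Called values that reversed were myocd in Cyp26-deficient embryos (-0.090 with the other WT library), and elna in Cyp26-deficient embryos (0.76 with the highest exon) and in Cyp26-deficient cells (-0.92 with the other WT library). The cause was not tested. The log2 fold change of myh11a stayed between -3.78 and -2.66 in Hdac1-depleted cells and between -3.22 and -1.14 in crg mutants under all 7 alternatives for single values. That of tagln in crg mutants stayed between -3.44 and -1.74. Counts under 10 limit cnn1b, elna and elnb in sorted cells. No paired analysis was possible because each condition has 1 library and the labels give no replicate numbers.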

Other observations

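Some genes near the 7 were looked at after their values had been seen. A further elastin gene model, ELN (3 of 3), on chromosome 3 (Zv9, 31142310 to 31164485), had 29 counts in WT siblings and 11 in the mutants (log2 fold change -1.68, interval -2.89 to -0.70), and -2.03 against the other WT library. In Cyp26-deficient embryos it was at -0.40, with 100 counts against 86. In Hdac1-depleted cells it was at -1.24, with 23 counts against 60, but at 0.68 against the other WT library. In Cyp26-deficient cells it had 15 counts against 10, at 0.35.

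A further myosin light chain kinase model, MYLK (2 of 2), was lower after both losses of Hdac1. In crg mutants it had 12 counts against 67 (-2.75, interval -3.85 to -1.92). In Hdac1-depleted cells it had 27 counts against 199 (-2.73, interval -3.42 to -2.20). Against the other WT libraries these values were -1.95 and -2.81. In Cyp26-deficient embryos and cells it was at -0.17 and -0.84.

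The TGF-beta binding protein gene ltbp3, a marker of the SHF in zebrafish, was at -1.56 in crg mutants (59 counts against 138) and at -1.06 in Hdac1-depleted cells (564 counts against 1264). Against the other WT libraries it was at -1.42 and -0.34.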
